A study of Mus musculus with 2 samples.

Results

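Rpa1, the gene of the largest subunit of replication protein A (RPA), was examined for the editing of its transcript. Its 3′ untranslated region (UTR) carried one of the largest numbers of edited sites listed for a gene in cultured mouse embryonic fibroblasts. The data were 1 poly(A)+ RNA-seq library of cells labelled Adar2-WT (genotype Adar2+/+) and 1 of cells labelled Adar2-KO (Adar2-/-), with a deposited list of edited positions for each library and 1 expression table. Cells of both genotypes grew in DMEM with fetal bovine serum and antibiotics. How many embryos or clones each culture came from, and which allele of Adar2 was used, the sources used here do not give. Every row annotated to Rpa1 in either list was taken, which gave 17 of 654 sites in the library labelled WT and 5 of 110 in the library labelled KO, or 17 of 689 distinct positions. The partner subunits Rpa2 and Rpa3 were taken with Rpa1 from the expression table, as 3 of its 24015 genes. Rpa1 was chosen by these editing values, its number of listed sites and their difference between the libraries, so the editing values below describe the gene and were not tested. With 1 library per genotype no difference has a replicate check, and every interval covers counting error only.

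RPA is a trimer that binds single-stranded DNA as soon as it is exposed in replication, repair and recombination. Its large subunit holds most of the DNA-binding surface, the middle subunit, from Rpa2, is phosphorylated when DNA is damaged, and the small subunit, from Rpa3, is part of the core that holds the trimer together. Adenosine deaminases acting on RNA (ADARs) turn adenosine into inosine within double-stranded RNA, and sequencing reads inosine as G. In 3′ UTRs such double strands form mostly where a transcript pairs with an inverted copy of a sequence within itself, and editing there leaves the protein sequence as it is.

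The labels were read against the transcripts before the results. Adarb1, the gene of ADAR2, had 18.4 RPKM (reads per kilobase of the gene and per size of the library) in the library labelled WT and 25.8 RPKM in the library labelled KO. Adar, which encodes ADAR1, had 28.05 and 18.7 RPKM. Whole-gene values cannot show whether part of Adarb1 was deleted, and the libraries are therefore called WT-labelled and KO-labelled. The RPKM values rested on 9446911 reads in the library labelled WT and 9546996 in the library labelled KO. Of 12 fibroblast markers, 11 reached 10 RPKM in the library labelled WT and 12 in the library labelled KO. No marker of the epithelial, blood and immune or endothelial lists did so in either library, while the stem cell factor gene Sox2 had 24.2 RPKM under the WT label and 0.171 RPKM under the KO label. Nanog, another pluripotency marker, had 0.850 and 3.08 RPKM, and Pou5f1 and Zfp42 were under 1 RPKM in both. Of the fibroblast markers, Thy1 had 9.40 RPKM under the WT label and 72.1 RPKM under the KO label. Dcn had 29.7 and 12.3 RPKM.

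The edited stretch of Rpa1 lies on the minus strand of chromosome 11, at chr11:75114062-75114542 in the authors' mm9 coordinates, and all its sites are annotated as 3′ UTR and as outside repeats. No mm9 sequence was read. The spacing of the 17 sites placed them on reference transcripts instead. Among 113337 GENCODE M21 transcripts at least as long as the span of 481 bases, an A stood at every one of the 17 spacings at a single offset in Rpa1-201 and a single offset in Rpa1-202, and in no transcript of another gene. In both transcripts the sites begin 265 bases after the stop codon, end 745 bases after it, and lie in the last exon. Rpa1-201 has a 3′ UTR of 955 bases and Rpa1-202 one of 3139 bases, and the edited stretch is in the part that they share.

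Sites fell into 2 blocks, on stretches of the transcript that pair with each other in its predicted fold. The blocks themselves face each other only in part. Along the mRNA, 6 sites lay within 42 bases, a gap of 368 bases followed, and 11 sites lay within 72 bases. Within the blocks the median distance between neighbouring sites was 7 bases (range 1 to 17), and 4 pairs of sites were adjacent. RNAfold, run on the span with 60 bases on each side (601 bases), joined the stretches around the blocks into 1 unbranched stem of 120 base pairs, with a predicted energy of -240.5 kcal/mol. Its arms had 150 and 155 bases with 289 bases between them, and 78.7% of arm bases were paired. The longest uninterrupted helix had 20 pairs. The stem was traced from the predicted pair of a listed site, 75114534. All 17 sites lay in the arms, 6 in the upstream and 11 in the downstream one, and none of the 71 A bases between the arms was listed. The structure is a prediction from sequence, and how many reads covered the bases between the arms is not in the lists.

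The middle of the stem is shown because it holds the site with the highest level in both libraries and the sites that face it on the other arm. These 27-base windows of GENCODE M21 transcript Rpa1-202 (GRCm38, chromosome 11, minus strand) are written 5′ to 3′ with T for U, and capitals mark listed sites.
Upstream arm: aAattAtgtcacaagtcattAAcccca
Downstream arm: tggggtcAgttacttgAgacacAAtcc
They start 285 and 705 bases after the stop codon, and 21 base pairs joined them in the predicted fold. The capitals of the upstream window are, in order, mm9 positions 75114521, 75114517, 75114502 and 75114501. Those of the downstream window are 75114095, 75114086, 75114080 and 75114079.

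In the library labelled WT the levels ran from almost no to almost complete editing within a few bases. The level is the percent of reads with the edited base, given with a Wilson 95% interval. Position 75114517, the second capital of the upstream window, was edited in 59 of 62 reads (95.2%, interval 86.7 to 98.3), which was the largest number of edited reads at any of the 654 sites. Position 75114521, 4 bases before it on the mRNA, was edited in 2 of 62 reads (3.23%, interval 0.889 to 11.02), the lowest level in Rpa1. These intervals do not overlap, although the same reads could cover both positions.

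The downstream arm held the other 4 sites above 50%, side by side. Position 75114080 was edited in 51 of 54 reads (94.4%, interval 84.9 to 98.1) and its neighbour 75114079 in 43 of 54 (79.6%, interval 67.1 to 88.2). Position 75114095 had 45 of 59 reads edited (76.3%, interval 64.0 to 85.3), and position 75114086 had 40 of 57 (70.2%, interval 57.3 to 80.5). All 4 are capitals of the downstream window, within 17 bases of one another.

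The remaining sites were edited at moderate or low levels. Of the 17 sites, 7 had levels from 20% to 50% and 5 were under 20%, and the median over all was 29.7%. Position 75114120 had 40.0% of 70 reads and position 75114502 had 35.0% of 60 reads, the highest of this group. Toward the outer side of the arms, 75114062 stood at 31.0% of 58 reads and 75114542 at 28.1% of 64 reads. Position 75114534 had 23.1% of 65 reads. In the inner part of the downstream arm, 75114133 had 29.7% and its neighbour 75114132 had 17.2% of 64 reads each. Positions 75114124 (25% of 68 reads) and 75114125 (19.4% of 67 reads) were the next adjacent pair, with overlapping intervals. The lowest levels beside 75114521 were those of 75114501 (10.0% of 60 reads) and 75114112 (12.9% of 70 reads). Depth ran from 54 to 70 reads. At 54 reads, 75114080 and 75114079 had 94.4% and 79.6%, and at 70 reads, 75114120 and 75114112 had 40.0% and 12.9%. Whether level goes with depth was not tested.

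**Figure D1:**
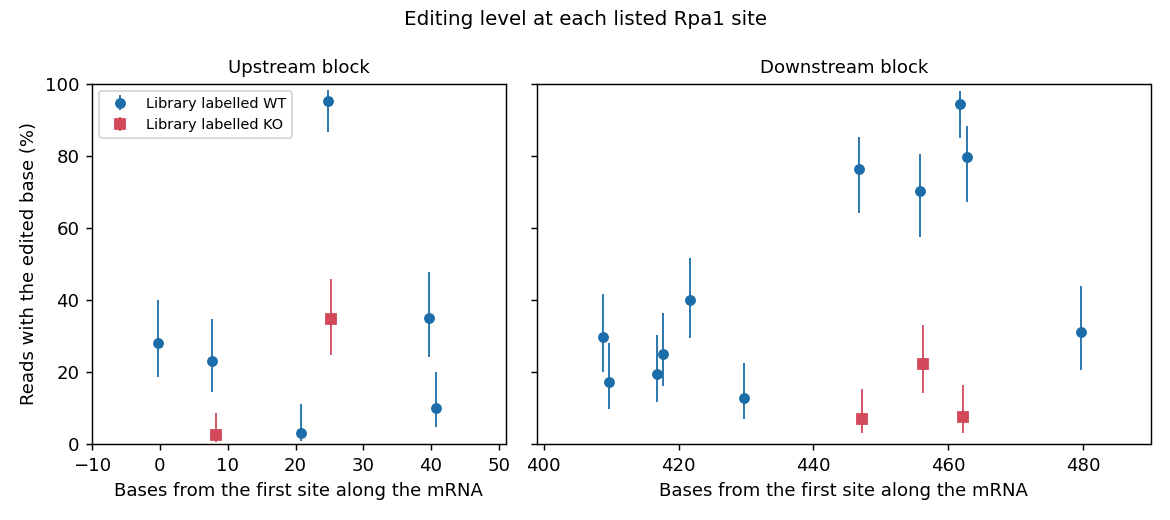
Percent of reads with the edited base at each listed Rpa1 site (vertical axis) against the distance in bases from the first site along the mRNA (horizontal axis), in the library labelled WT (circles) and the library labelled KO (squares), with Wilson 95% intervals for counting error. WT-labelled levels range from 3.23% to 95.2%, and the 5 KO-labelled levels lie below the WT-labelled level at the same site.

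In the library labelled KO 5 sites were listed, all of them also in the WT-labelled list, and each was lower there. Position 75114517 kept the highest level, 26 of 75 reads (34.7%, interval 24.9 to 45.9), which is 36.4% of its WT-labelled level. Position 75114086 followed with 16 of 72 reads (22.2%, interval 14.2 to 33.1), or 31.7% of its WT-labelled level. These 2 sites held most of the edited reads that Rpa1 had in this library, 42 of 54 by their sum.

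The sites beside them had little editing left. Position 75114080 had 5 of 67 reads edited (7.46%, interval 3.23 to 16.3) and 75114095 had 5 of 72 (6.94%, interval 3.0 to 15.2), which is 7.90% and 9.10% of their WT-labelled levels. Position 75114534 had 2 of 79 reads (2.53%, interval 0.697 to 8.77). Position 75114517 was above 75114080 in both libraries, but the gap between them differed. They were within 1 percentage point of each other in the library labelled WT. In the library labelled KO they were 27.2 points apart, with intervals that do not overlap. Position 75114086 was below 75114080 and 75114095 in the library labelled WT and above both in the library labelled KO. In the library labelled KO its interval overlaps both of theirs.

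Over the 5 shared sites, 210 of 297 reads (70.7%, interval 65.3 to 75.6) were edited in the library labelled WT and 54 of 365 (14.8%, interval 11.5 to 18.8) in the library labelled KO. A read counts at each site it covers, so the true counting error is larger than these intervals. The WT and KO intervals did not overlap at 5 of the 5 sites, beside 40% of the 75 sites shared by the libraries over all genes. Rpa1 was picked for this contrast, and nothing is read from that count. Without 75114517 the pooled levels were 64.3% and 9.66%. All these pooled levels cover only sites in both lists, and so pass sites by their KO-labelled editing. Sites listed only in the library labelled WT, given next, do not enter them.

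The other 12 sites were listed only in the library labelled WT, with levels from 3.23% to 79.6% (median 26.6%). Each lay within 38 bases of a site that was covered by 67 to 79 reads in the library labelled KO. Position 75114079 was 1 base from a site with 67 reads there, yet was not listed. No site of any gene was listed with fewer than 2 edited reads, so absence from a list does not show that a site is unedited. Adarb1 was higher and Adar lower in the library labelled KO, as given above, and the part of either in the loss of Rpa1 editing was not tested.

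Pairing in the predicted stem was not used to choose Rpa1, and the sites fell into 3 kinds by it. Of the 17 sites, 10 were paired with a U, 4 were single mismatches within the helix and 3 lay in other unpaired positions. The arms held 86 A bases in all. Of these, 66 were paired and 10 of the 66 were listed (15.2%), while 7 were single mismatches and 4 of the 7 were listed. The other 13 were otherwise unpaired, and 3 of the 13 were listed. An A opposite a C is a mismatch that ADARs are known to edit well. The arms had 4 such positions, and 3 were sites: 75114517 (95.2%), 75114120 (40.0%) and 75114502 (35.0%). The fourth mismatched site, 75114086, stood opposite an A. WT-labelled levels of the 4 mismatched sites ran from 35.0% to 95.2%, those of the 10 paired sites from 10.0% to 94.4%, and those of the 3 other unpaired sites from 3.23% to 29.7%. The groups overlap and the sites share reads, so no test was made. The 2 sites with the most editing left in the library labelled KO, 75114517 and 75114086, were both single mismatches. The other 3 sites listed there were paired.

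The sites with the highest level in each arm sat against each other. The C opposite 75114517 is the base next to 75114080, and the base next to 75114517 pairs with 75114080. The same holds further along the stem, where the C opposite 75114502 adjoins 75114095. In all, 4 sites had an opposite base within 1 base of another site.

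**Figure D2:**
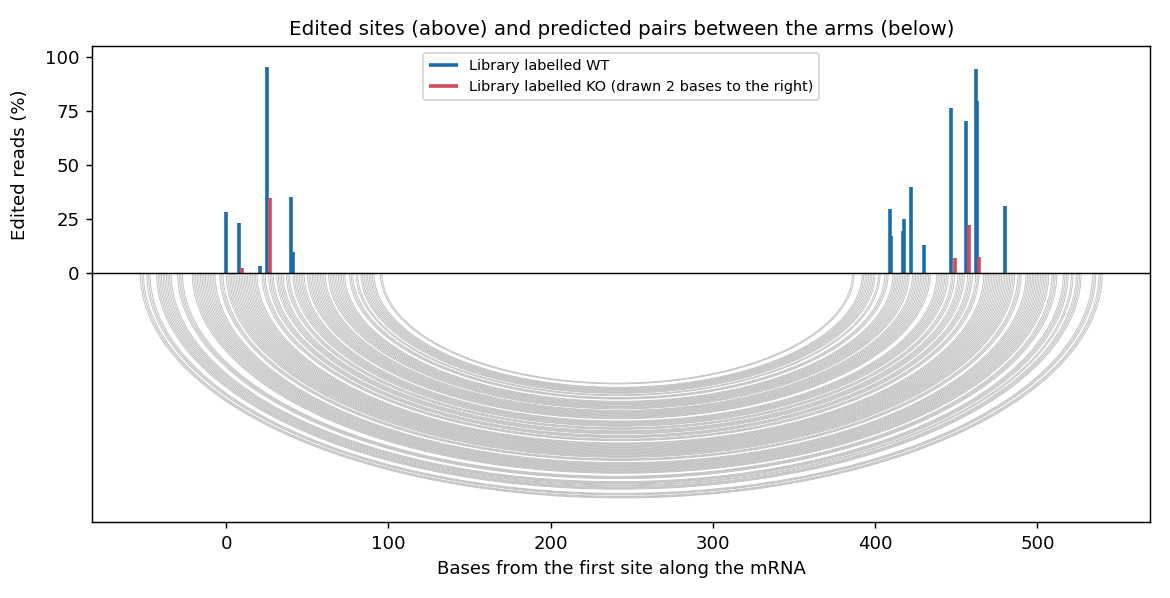
Editing levels (bars above the line, percent of reads with the edited base) and the 120 predicted base pairs between the arms (arcs below the line) against the distance in bases from the first Rpa1 site along the mRNA. The 6 upstream and 11 downstream sites lie in arms that pair with each other, and no listed site lies between the arms.

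The bases next to the sites were compared with those next to the unlisted A bases of the same arms. ADARs are known to disfavour a G just before the edited A and to favour U or A there. An A or U came before 14 of the 17 sites (82.4%), against 29 of the 69 unlisted A bases in the arms (42.03%). A G came before 1 site (5.88%), 75114086, against 15 unlisted A bases (21.7%). In an adjacent pair the second site follows an A by construction. Among the 13 sites that do not follow another site, 10 (76.9%) had an A or U before them. A G came after 2 of the 17 sites, against 18 of the 69 unlisted A bases. These 2 sites, 75114095 and 75114086, had levels above 70% in the library labelled WT.

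Among edited genes, Rpa1 had few equals in number of sites outside repeats. Only 19.4% of WT-labelled sites and 24.5% of KO-labelled sites over all genes were annotated outside repeats, whereas all sites of Rpa1 were. By sites of any kind it ranked 3 of 203 names in the WT-labelled list, after Car5b with 31 sites, all in repeats, and C330018D20Rik with 19, none in repeats. In the KO-labelled list it ranked 2 of 68 names, after uc012aji.1 with 6 sites, all in repeats. Counting sites outside repeats alone, Rpa1 was second of 47 genes in the WT-labelled list and first of 15 in the KO-labelled list, where the next gene had 4. Rpa1 supplied 2.60% of WT-labelled sites but 8.84% of their edited reads, and 4.55% of KO-labelled sites with 11.9% of their edited reads. Ranks by count depend on depth, and Rpa1 is an abundant transcript.

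The genes nearest to Rpa1 in editing were found from levels pooled over sites listed in both libraries. Of 42 genes with such a site, 10 had at least 2, Rpa1 among them. By distance in the plane of both levels, the nearest was Exoc8, a subunit of the exocyst, with 70% and 17.5% over 2 sites (distance 2.80 percentage points). Next was the noncoding transcript uc012aji.1 (63.4% and 9.50% over 6 sites, distance 9.03 points). C330018D20Rik (78.6% and 26.8%, distance 14.4 points) and Dlst, a subunit gene of the oxoglutarate dehydrogenase complex (62.5% and 28.6%, distance 16.04 points), were also among the 5 nearest. This likeness rests on 2 libraries and as few as 16 reads. Over its 5 shared sites, the KO-labelled level of Rpa1 was 20.9% of its WT-labelled level. Over the 10 genes, Rpa1 included, this share ranged from 9.29% to 75% with a median of 29.6%. The 75% came from a gene with 6 and 8 reads. In 3 of the 10 genes the share was lower than in Rpa1. A site counts only if it is in both lists, so these shares leave out sites that are missing from the KO-labelled list.

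**Figure D3:**
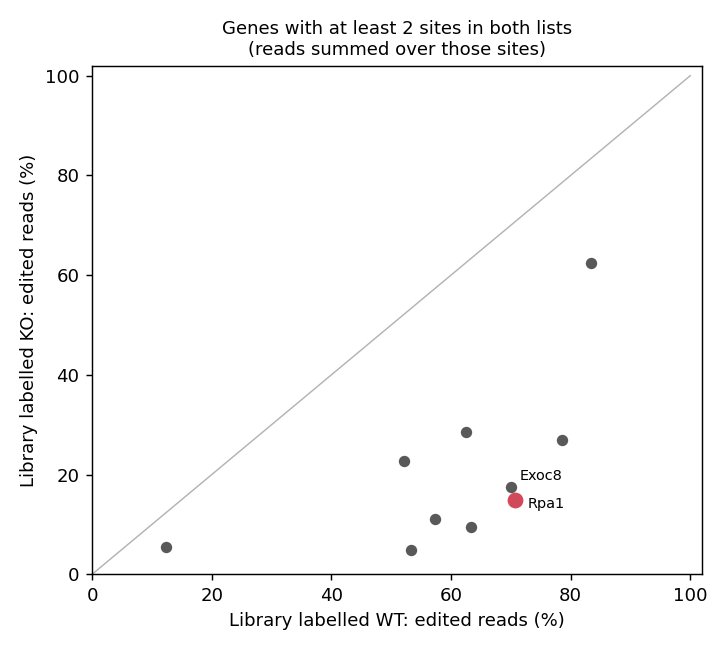
Levels pooled over sites listed in both libraries, WT-labelled (horizontal axis) against KO-labelled (vertical axis), in percent of reads with the edited base, for the 10 genes with at least 2 such sites. The line marks equal levels, 2 genes are labelled, and Rpa1 (larger point) lies at 70.7% and 14.8%, next to Exoc8 at 70% and 17.5%.

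Transcripts of the 3 RPA subunits were present in both libraries in the same order per length, Rpa1 above Rpa3 above Rpa2. Rpa1 had 50.3 RPKM (1476 reads) in the library labelled WT and 59.6 RPKM (1766 reads) in the library labelled KO. The KO-labelled value was 1.18-fold the WT-labelled one, and the log2 ratio of reads per total had an exact 95% interval of 0.14 to 0.34. That interval lies above 0. Counting error leaves out the spread between cultures, which these libraries cannot give.

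The partner subunits lay closer together. Rpa2 had 19.9 RPKM (335 reads) and 20.2 RPKM (344 reads), with an interval of the log2 ratio from -0.20 to 0.24. Rpa3 had 33.5 RPKM (202 reads) and 35.8 RPKM (218 reads), with an interval from -0.19 to 0.38. Both intervals include 0 and both overlap that of Rpa1, and whether the ratio of Rpa1 differs from those of its partners was not tested. In RPKM, Rpa1 stood at 2.53 times Rpa2 in the library labelled WT and 2.95 times in the library labelled KO, and at 1.5 and 1.66 times Rpa3.

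On the scale of log2((KO + 1)/(WT + 1)) of RPKM, used from here on, Rpa1 had 0.24, Rpa2 0.02 and Rpa3 0.09. Among the 10375 genes that reached 10 RPKM in either library, 20.03% had a higher ratio than Rpa1, 48.7% than Rpa2 and 37.1% than Rpa3. The authors' deposited table gives Rpa1 a GFOLD value, a log2 fold change shrunken toward 0 where reads are few, of 0.18, and gives Rpa2 and Rpa3 a value of 0. The length behind the RPKM of Rpa1 was 3106 bases, between the 2942 bases of Rpa1-201 and the 5077 bases of Rpa1-202. In bulk RNA, fewer cells with a transcript and less transcript per cell cannot be told apart.

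**Figure D4:**
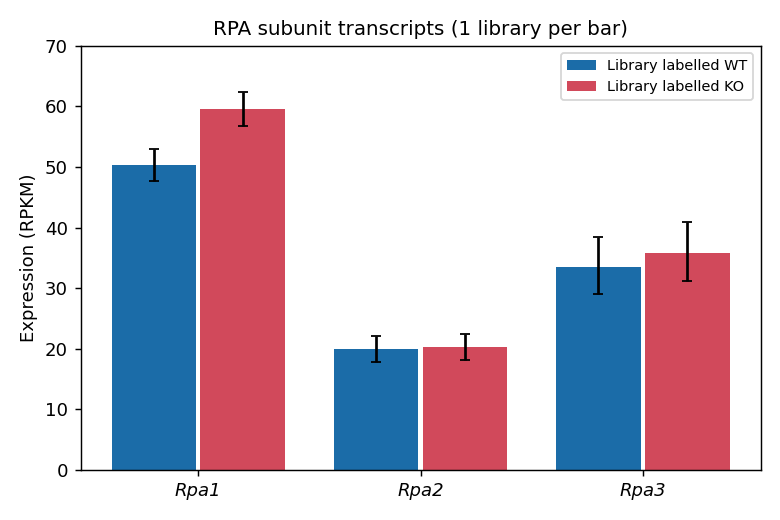
Expression in RPKM (vertical axis, from 0) of the 3 RPA subunit genes in the WT-labelled and library labelled KO, 1 library per bar, with exact Poisson 95% intervals for counting error. The Rpa1 bars stand at 50.3 and 59.6 RPKM with intervals that do not overlap, and the bars of Rpa2 and Rpa3 have overlapping intervals.

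Next to Rpa1 on chromosome 11, RefSeq (GRCm38.p6) places Smyd4 on the 5′ side, overlapping the first bases of Rpa1, and the noncoding gene Gm35117 on the 3′ side, with no overlap. Since the use of strand in the counts is unknown, reads from the overlap of Smyd4 and Rpa1 cannot be assigned. Smyd4, of the SET and MYND domain family, had 9.06 RPKM in the library labelled WT and 13.2 RPKM in the library labelled KO (log2 reads ratio between 0.32 and 0.76 at 95%). The next protein-coding gene on the 3′ side, Rtn4rl1, encoding a Nogo receptor relative, had 1.89 and 6.36 RPKM (between 1.33 and 2.20). On the RPKM + 1 scale Rtn4rl1 was over 2-fold higher in the library labelled KO, as were 4.42% of the 13867 genes that reached 1 RPKM in either library. All 3 measured genes of this stretch, Rpa1 among them, were higher in the library labelled KO. Over the 13867 genes, 50.8% had a ratio above 0, and nothing is read from a count of 3 genes.

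Genes that work at the replication fork with RPA had similar values in both libraries, mostly with ratios on the side of Rpa1. Of 32 such genes 0 were 2-fold apart in either direction, beside 11.9% of all 13867 genes compared. Their median log2 ratio was 0.15, beside 0.01 over all genes, and 27 had a ratio above 0, while 50.8% of all genes did. The highest at the 10 RPKM floor were Pole (9.80 and 13.9 RPKM), the catalytic subunit gene of the leading-strand polymerase, and Pola1 (24.5 and 33.9 RPKM), that of the polymerase that extends RNA primers. The lowest were Gins2 (56.4 and 47.6 RPKM) and Cdc45 (38.3 and 35.9 RPKM), parts of the replicative helicase. The ratio of Rpa1 was exceeded by 9 of the 32. The 2-fold shares are not matched for level: 31 of the 32 genes reached 10 RPKM in either library, against 10375 of the 13867. RPKM values also have a ceiling, with highest values of 107.0 in the library labelled WT and 124.3 in the library labelled KO. It can compress the ratios of abundant genes, those of the lists and of Rpa1 among them.

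The checkpoint genes that read RPA-coated DNA had a median of 0.21, with 12 of 12 ratios above 0 and 0 of 12 genes 2-fold apart. Hus1 (12.2 and 19.0 RPKM), part of the checkpoint clamp, and Etaa1 (15.02 and 22.2 RPKM), which binds RPA and activates the ATR kinase, were highest. Tipin (27.8 and 28.1 RPKM), a fork protection factor that binds RPA, and Clspn (16.8 and 17.2 RPKM), encoding the adaptor claspin, were lowest. Values for Atr itself were 8.46 and 11.9 RPKM, and for its partner Atrip, which binds RPA, 20.8 and 22.4 RPKM.

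Among 20 repair and recombination genes 0 were 2-fold apart, the median was 0.18 and 16 ratios were above 0. Brca2 (8.13 and 13.7 RPKM), which acts in recombination, and the helicase gene Blm (17.7 and 23.5 RPKM) were highest. Ercc1 (17.9 and 15.99 RPKM), a nuclease subunit of excision repair, and the helicase gene Wrn (20.1 and 18.5 RPKM) were lowest.

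General proliferation genes had ratios on both sides of 0. Of 14 genes, 0 were 2-fold apart, the median was -0.05 and 8 had a ratio below 0. Ccne1 (35.4 and 24.1 RPKM), the gene of cyclin E1, and Rrm2 (42.2 and 31.2 RPKM), a subunit of ribonucleotide reductase, were lowest. Top2a (60.7 and 69.2 RPKM) and Aurkb (27.5 and 31.5 RPKM), which act in chromosome segregation, were highest. None of the 14 exceeded the ratio of Rpa1. It was exceeded by 9 of the 32 fork genes, 6 of the 12 checkpoint genes and 8 of the 20 repair genes. Among all genes that reached 10 RPKM in either library, 20.03% exceeded it. The 2 libraries cannot tell a difference between the lists from a difference between cultures.

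**Figure D5:**
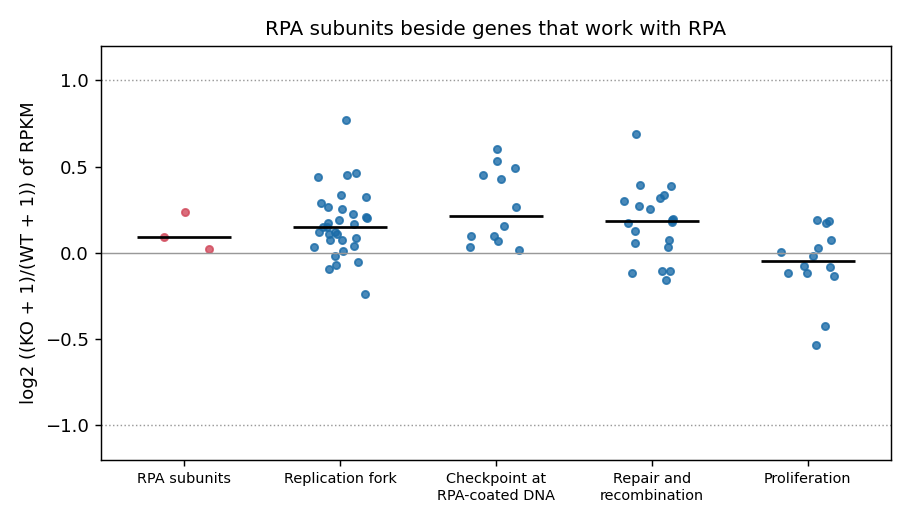
Log2((KO + 1)/(WT + 1)) of RPKM (vertical axis) for the 3 RPA subunits and the genes of the 4 lists, 1 point per gene, with a bar at each median and dotted lines at 2-fold. No gene of the lists reaches 2-fold, and the list medians are 0.15, 0.21, 0.18 and -0.05 from left to right after the subunits.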

How the data were processed

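Poly(A)+ RNA of 1 library per genotype was sequenced as single-end reads, per the labels. STAR 2.4.0d, SAMtools and mm9 stand in the submitters' processing notes, with no step given. The authors deposited RPKM values with a log2 fold change and a GFOLD value (log2) in a table of GFOLD layout, per the file headers. Its empirical FDR, a kind of q-value, is 1 in every row of the deposited table and was not used. The deposited editing lists give a count of reads over each site, a count with the mismatch and the level as a fraction, per the file headers. The sources used here do not give the editing caller, its filters, the annotation or the use of strand.

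Library totals and whole reads were recovered from RPKM and the log2 fold change of genes at 0 in 1 library (1462 and 705 genes). Implied gene lengths lay a mean of 0.0025 and 0.0020 bases from whole numbers, and the recovery was tested on simulated data. RPKM values have a ceiling (highest 107.0 and 124.3), which can compress differences. Levels have Wilson 95% intervals and read ratios exact Clopper-Pearson 95% intervals, conditional on the sum. Reads carry no molecular identifier and so may repeat a molecule. Ratios used a pseudocount of 1 RPKM and genes that reached 1 RPKM in either library. Folds used RNAfold 2.7.2 with default settings on GENCODE M21 sequence; the transcripts were matched by site spacing, and no coordinate was converted between builds. Named genes are the subunits, both ADAR genes, genes beside Rpa1, genes with as many sites and the 5 nearest in editing. The 2 highest and 2 lowest of each list at 10 RPKM or more are named too. Atr, Atrip, the pluripotency markers, Thy1 and Dcn were added after their values were seen. Results of a few genes are not reported here. Members and lists were chosen with earlier results of these data known.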

Additional observations from a re-analysis of the deposited data

How the results depend on the processing

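Of 68 values recomputed under other settings for 21 results, 64 stayed within their counting interval, within 1.5 times for a count, or within 0.1 for a list median, and 0 changed sign beyond their interval. The exceptions were all in editing. Over every site listed in the library labelled WT the pooled Rpa1 level was 39.2% instead of 70.7%, because sites of lower level enter. Leaving out the site with the highest KO-labelled level, 75114517, gave 64.3% and 9.66% instead of 70.7% and 14.8%. With at least 3 sites in both libraries required, 3 of the 5 genes nearest to Rpa1 remained, since fewer genes qualify. Folding 20 or 150 bases on each side or the whole 3′ UTR, chosen after seeing the data, gave 93, 111 and 100 pairs in the stem, and all 17 sites had the same partner or stayed unpaired. Centring on the median gene moved ratios by 0.01. No paired analysis was possible because each genotype has 1 library. Depth limits the editing levels: at 60 reads, a level of 35.0% has an interval from 24.2% to 47.6%.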
